A study of Mus musculus with 3 samples.

Results

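The regions described here lie in the first assembled 3 Mb of chromosomes 1 to 19 in the mouse build mm9, the stretch next to the centromere. Every KAP1 peak and every H3K9me3 region of these chromosomes with its midpoint between 3000000 and 6000000 was taken, whatever its score or width. That gave 557 of 19549 KAP1 peaks and 1021 of 39526 H3K9me3 regions, 1578 of the 59075 regions in both lists. They were compared with the rest of the same chromosomes, from 6 Mb to the last base that either list covers, which held 17619 KAP1 peaks and 35901 H3K9me3 regions. No region of either list on these chromosomes had its midpoint before 3 Mb, and 1 KAP1 peak, on chromosome 9, began before it.

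The lists came from chromatin immunoprecipitation with sequencing in C2C12 cells, an established myoblast line from C3H mice, all in the proliferating state. There was 1 library with a rabbit antibody against KAP1 and 1 with an antibody against H3K9me3, and a library without antibody is not analysed here. The cells carried no labelled treatment or genetic change, so the comparisons run between parts of the genome and not between conditions. With 1 library per antibody no value has a spread between replicates. Intervals are 95% intervals of counting error over regions, and the regions are not independent of their neighbours. Read depth is unknown.

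Mouse chromosomes carry their centromere at one end. Beside it lie long arrays of satellite repeats, a classic site of H3K9me3 heterochromatin laid down mainly by the SUV39H methyltransferases, and these arrays are largely missing from assembled sequence. KAP1 (TRIM28), a corepressor, reaches DNA through KRAB zinc finger proteins. Its partner SETDB1 trimethylates lysine 9 of histone H3, and the pair is best known for silencing endogenous retroviruses and for keeping imprints. The proximal ends are therefore the assembled sequence closest to the pericentric heterochromatin, and they hold both ordinary genes and repeats.

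Both lists were denser at the proximal ends than in the rest of the chromosomes. KAP1 stood at 9.77 peaks per Mb proximally (interval 8.98 to 10.6), against 7.47 in the rest (7.36 to 7.58), a ratio of 1.31 (exact interval 1.20 to 1.42). H3K9me3 stood at 17.9 regions per Mb proximally (16.8 to 19.05), against 15.2 in the rest (15.1 to 15.4), a ratio of 1.18 (1.10 to 1.25). By covered length the ratios were higher. KAP1 peaks covered 8.20 kb per Mb proximally and 5.62 kb per Mb in the rest, a ratio of 1.46. H3K9me3 regions covered 22.0 kb per Mb proximally and 15.3 kb per Mb in the rest, a ratio of 1.44.

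**Figure D1:**
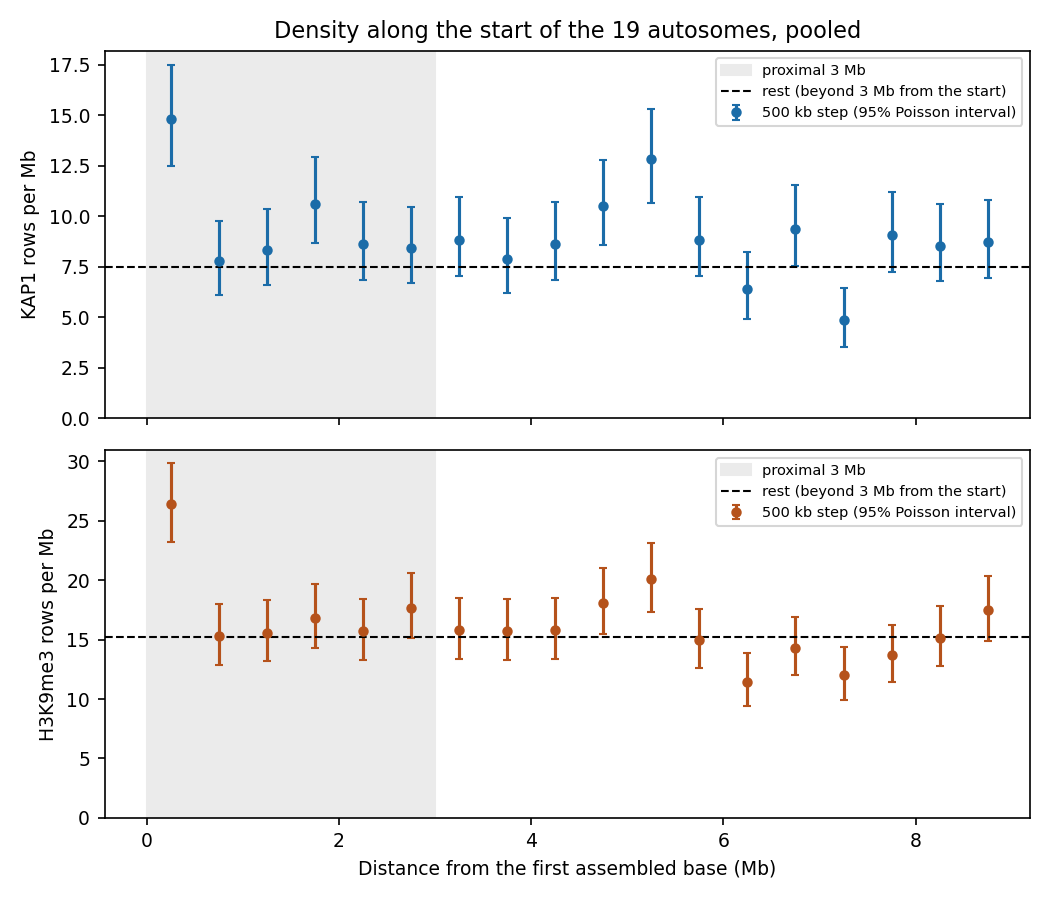
Regions per Mb in 500 kb steps from the first assembled base of the 19 autosomes, pooled (KAP1 above, H3K9me3 below), with exact 95% Poisson intervals and the density of the rest as a dashed line. The first step stands at 14.8 KAP1 peaks and 26.4 H3K9me3 regions per Mb, above the dashed line in both lists, and the next step lies on it.

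The excess was greatest in the first 500 kb. That step held 141 KAP1 peaks, 14.8 per Mb (interval 12.5 to 17.5), which is 1.99 times the rest (1.67 to 2.34). It held 251 H3K9me3 regions, 26.4 per Mb (23.3 to 29.9), 1.74 times the rest (1.53 to 1.96). The other 2.5 Mb of the proximal ends had 1.17 times the KAP1 density of the rest (1.06 to 1.29) and 1.06 times its H3K9me3 density (0.990 to 1.14), so that for H3K9me3 the interval of the ratio includes 1 once the first step is set aside. Set against those other 2.5 Mb, the first step was 1.69 times as dense in KAP1 (1.39 to 2.06) and 1.63 times as dense in H3K9me3 (1.41 to 1.88).

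The 5 later steps held between 74 and 101 KAP1 peaks and between 145 and 168 H3K9me3 regions each. Of these, only the step from 4.5 to 5 Mb in the KAP1 list, with 10.6 peaks per Mb, had an interval of the ratio that excluded 1 (ratio 1.42, 1.16 to 1.73). A KAP1 density somewhat above the rest was not confined to the proximal ends. In the steps between 6 and 12 Mb the KAP1 ratio ran from 0.648 to 1.72. It exceeded 1 in all of them except those at 9 to 9.5 Mb (0.859) and 10 to 10.5 Mb (0.648), with many intervals that include 1. The densest step between 6 and 12 Mb was the one at 8 to 8.5 Mb. From 8 to 8.5 Mb the density was 12.8 per Mb for KAP1, 1.72 times the rest (1.43 to 2.05), and 20.1 per Mb for H3K9me3, 1.32 times the rest (1.14 to 1.52). None of the 17 steps that follow the first up to 12 Mb reached its density in either list. The interval of the ratio at 8 to 8.5 Mb overlaps that of the first step for KAP1 and lies below it for H3K9me3.

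Within the first step the calls lay towards its start. The first 100 kb of the 19 chromosomes held 64 KAP1 peaks, 33.7 per Mb or 4.51 times the rest (interval 3.47 to 5.76). The same 100 kb held 71 H3K9me3 regions, 37.4 per Mb or 2.45 times the rest (1.92 to 3.10). Chromosome 9 alone gave 17 of those 64 KAP1 peaks, and without it the KAP1 ratio in the first 100 kb was 3.47 (2.55 to 4.62). Chromosome 18 gave the most H3K9me3 regions there, 12 of 71. By the last 100 kb of the step the counts were 7 KAP1 peaks, 3.68 per Mb (1.48 to 7.59), and 34 H3K9me3 regions, 17.9 per Mb (12.4 to 25.0). The fall across the step was uneven for KAP1, with 28, 16 and 26 peaks in the 3 stretches between.

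The first H3K9me3 region began a median of 13.0 kb into the assembled sequence, between 0.023 kb on chromosome 15 and 98.9 kb on chromosome 5. The first KAP1 peak began a median of 45.1 kb in, and on chromosome 2 only after 401.3 kb. Every one of the 19 chromosomes held an H3K9me3 region in its first 100 kb, and 16 held a KAP1 peak there. The share of 100 kb windows of the rest that hold a call was not computed, so these counts have no background beside them.

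**Figure D2:**
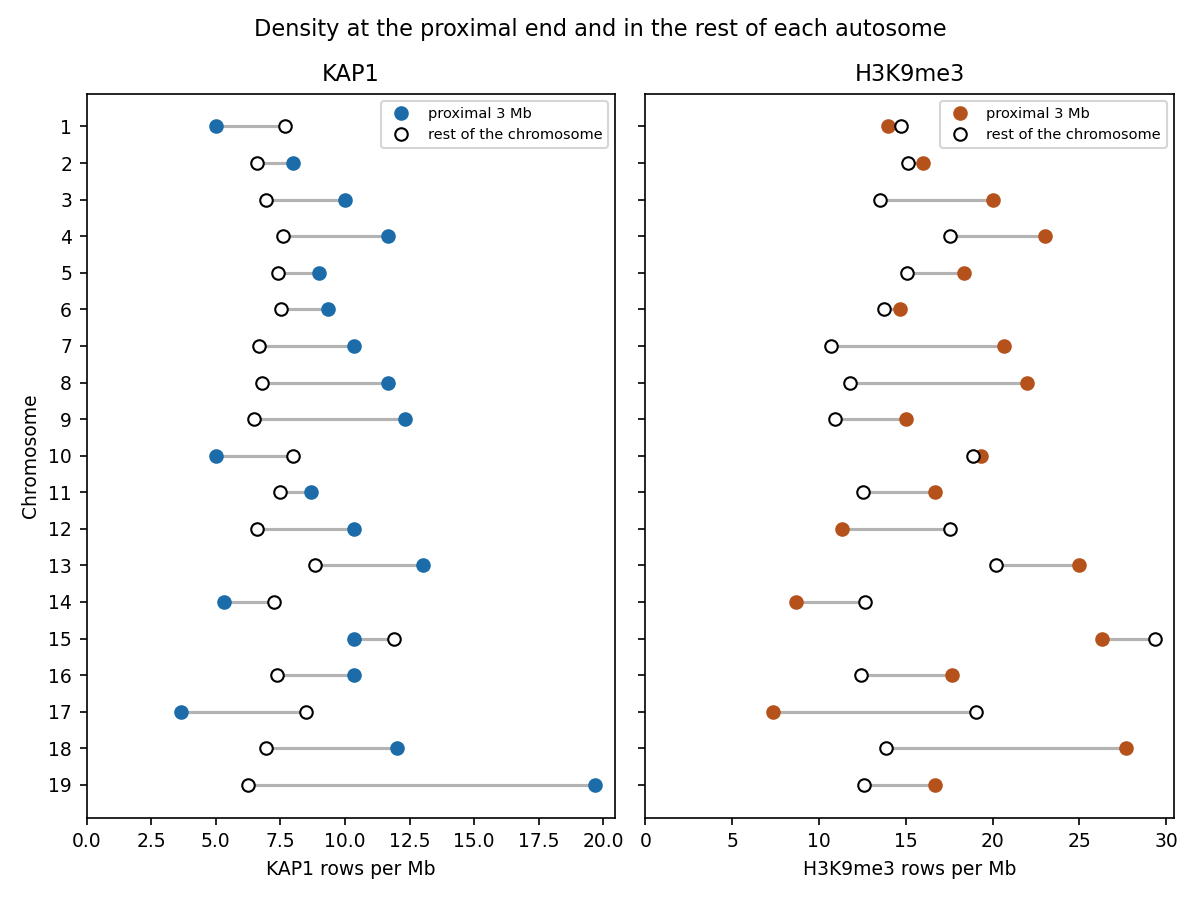
Regions per Mb in the proximal 3 Mb (filled) and in the rest (open) of each autosome, KAP1 on the left and H3K9me3 on the right. The filled point lies to the right on 14 of 19 chromosomes in each list, farthest for KAP1 on chromosome 19, and to the left in both lists on chromosomes 1, 14, 15 and 17.

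Chromosomes differed widely. KAP1 density was higher proximally than in the rest on 14 of the 19 chromosomes, and H3K9me3 density on 14, of which 13 were shared. Of the consecutive 3 Mb windows beyond 6 Mb, 42.7% exceeded the density of their own chromosome for KAP1 and 38.3% for H3K9me3. The interval of the chromosome's ratio lay above 1 on 8 chromosomes for KAP1 (4, 7, 8, 9, 12, 13, 18 and 19) and on 6 for H3K9me3 (3, 4, 7, 8, 16 and 18). It lay below 1 on chromosome 17 in both lists and on chromosome 12 for H3K9me3. The 19 proximal ends held a median of 31 KAP1 peaks (range 11 to 59), against a median of 21 (interquartile range 16 to 26) over the 775 windows of the rest. For H3K9me3 the median was 53 (range 22 to 83), against 39 (31 to 51) in the windows of the rest. The mean ratio over chromosomes was 1.35 ± 0.60 for KAP1 and 1.22 ± 0.43 for H3K9me3 (SD over 19 chromosomes).

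The first 500 kb was denser than the rest of its chromosome on 13 of 19 chromosomes for KAP1 and on 16 of 19 for H3K9me3. Among consecutive 500 kb windows beyond 6 Mb, 40.8% exceeded their chromosome for KAP1 and 39.9% for H3K9me3. The first 500 kb was the single densest of the 6 proximal steps on 6 chromosomes for KAP1 and on 7 for H3K9me3. With ties counted it was the densest on 8 and on 9. On the remaining chromosomes a later proximal step held more. No matching count was computed for steps of the rest, so the counts of densest steps are descriptions only.

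**Figure D3:**
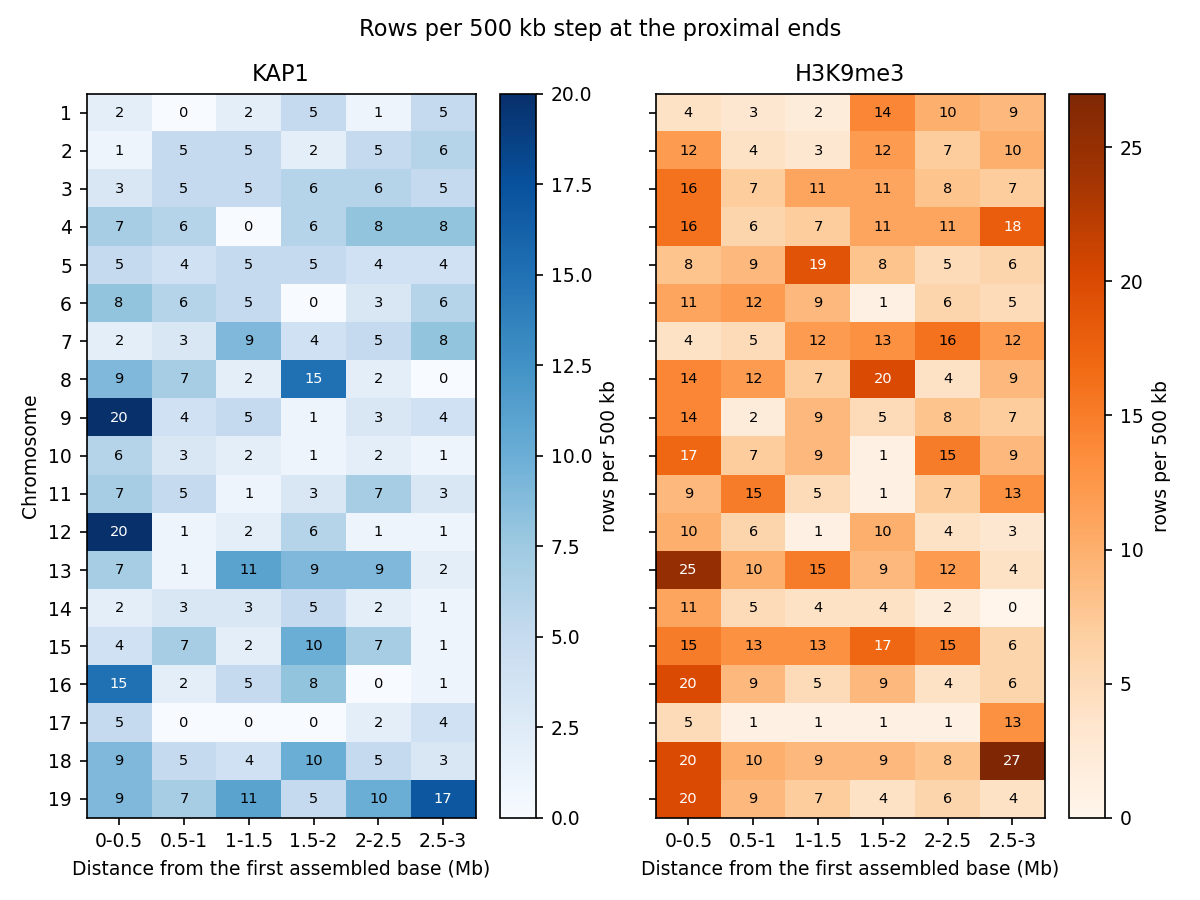
KAP1 peaks (left) and H3K9me3 regions (right) in each 500 kb step of the 19 proximal ends, counted from the first assembled base. The highest KAP1 counts are 20 in the first step of chromosomes 9 and 12, and the highest H3K9me3 count is 27 in the last step of chromosome 18.

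Chromosome 19 had the highest KAP1 density of the proximal ends. Its 59 peaks, 19.7 per Mb against 6.25 in its rest, gave a ratio of 3.14 (interval 2.34 to 4.15), and none of its 18 later windows of 3 Mb held as many. The excess ran through all 6 steps, with 9, 7, 11, 5, 10 and 17 peaks. H3K9me3 stood at 16.7 regions per Mb there and 12.6 in the rest, a ratio of 1.32 whose interval (0.974 to 1.77) lies below that of KAP1. Only 15 of the 59 KAP1 peaks of this end overlapped H3K9me3 (25.4%), against 43.1% in the rest of the chromosome. Of the 59, 10 formed 1 group in the last step, from 5786349 to 5845958, and none of these overlapped. That step held 17 peaks, of which 1 overlapped.

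Chromosomes 18, 8, 7 and 4 had both ratios with intervals above 1. Chromosome 18 held 36 KAP1 peaks (ratio 1.73, interval 1.20 to 2.42) and 83 H3K9me3 regions (ratio 2.00, 1.58 to 2.50), the most H3K9me3 regions of any proximal end. Of those 83, 27 lay in the last step, where only 3 KAP1 peaks were called. Chromosome 8 held 35 KAP1 peaks (ratio 1.72, 1.19 to 2.41) and 66 H3K9me3 regions (ratio 1.87, 1.44 to 2.39). None of its 41 later windows held more than 66 H3K9me3 regions. Its step from 4.5 to 5 Mb held 15 KAP1 peaks, 13 of them with H3K9me3, and 20 H3K9me3 regions. Chromosome 7 held 31 KAP1 peaks (ratio 1.55) and 62 H3K9me3 regions (ratio 1.93), most of both beyond its first 2 steps. Chromosome 4 held 35 KAP1 peaks (ratio 1.53) and 69 H3K9me3 regions (ratio 1.31). Chromosomes 9 and 16 owed much to their first 500 kb, with 20 of 37 KAP1 peaks on chromosome 9 and 15 of 31 on chromosome 16. Those steps held 14 and 20 H3K9me3 regions.

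Chromosome 17 stood at the other extreme. It held 11 KAP1 peaks proximally, 3.67 per Mb against 8.50 in its rest (ratio 0.431, interval 0.214 to 0.776), and 22 H3K9me3 regions, 7.33 per Mb against 19.1 (ratio 0.385, 0.240 to 0.584). From 3.5 to 5 Mb it had no KAP1 peak and 1 H3K9me3 region in each of the 3 steps. All of its 29 later windows held more H3K9me3 regions than its proximal end. Chromosome 12 was split between the lists, with a ratio of 1.57 for KAP1 (1.06 to 2.24) and 0.646 for H3K9me3 (0.446 to 0.905). Of its 31 KAP1 peaks, 20 lay in the first 500 kb. Its H3K9me3 density beyond 6 Mb includes a window with 435 regions, the highest count of the 775, against a median window of 32.5. The proximal end of chromosome 12 held 34 H3K9me3 regions, and 18 of its 38 later windows held more.

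KAP1 and H3K9me3 counts of the proximal ends followed each other loosely over the 19 chromosomes (Pearson's r of 0.466, Spearman's rho of 0.546). Without chromosome 19 the values were 0.670 and 0.632. Over the 114 steps of 500 kb they were 0.441 and 0.528. These values are descriptions. The points of the 2 lists share the same cells and sequence, and how much of it can be mapped uniquely was not tested.

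**Figure D4:**
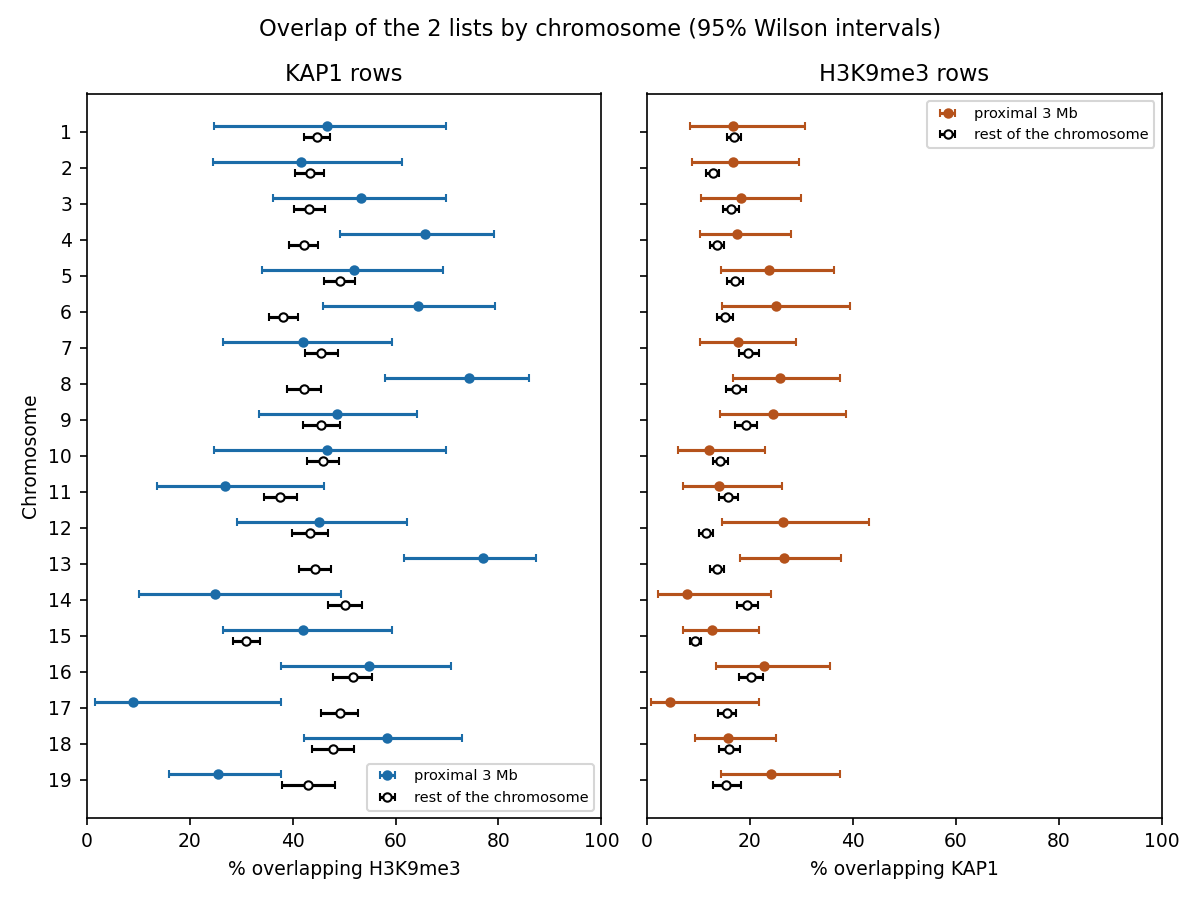
Share of KAP1 peaks that overlap H3K9me3 (left) and of H3K9me3 regions that hold KAP1 (right), in the proximal 3 Mb (filled) and the rest (open) of each autosome, with 95% Wilson intervals. Proximal KAP1 shares run between 9.09% on chromosome 17 and 76.9% on chromosome 13, while those of the rest stay between 30.9% and 51.7%.

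The lists overlapped somewhat more often at the proximal ends than in the rest, though not only there. Of the 557 proximal KAP1 peaks, 274 overlapped an H3K9me3 region by at least 1 bp (49.2%, interval 45.1 to 53.3), against 43.7% in the rest (43.0 to 44.5) and 43.9% of all autosomal KAP1 peaks. The difference from the rest was 5.44 percentage points (1.25 to 9.65). Of the 1021 proximal H3K9me3 regions, 194 held a KAP1 peak (19.001%, 16.7 to 21.5), against 15.2% in the rest and 15.3% of all autosomal H3K9me3 regions, a difference of 3.83 points (1.51 to 6.38). The KAP1 difference depended on single choices. Without chromosome 13 it was 3.39 points (-0.936 to 7.76). Leaving out chromosome 8 (3.68 points), 4 (4.23 points) or 6 (4.28 points) alone also gave an interval that includes 0, and among the higher-scoring 50% of both lists it was 4.22 points (-1.41 to 9.70). The higher overlap was not confined to the first 3 Mb. With the end set at 8 Mb the difference was 6.87 points (3.52 to 10.2) for KAP1 peaks. For H3K9me3 regions it was then 4.98 points (3.08 to 7.02).

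The density ratio was higher for shared regions than for unshared ones. This follows from the densities and overlap shares given above and is not a further result. The KAP1 share behind it depended on single chromosomes, as stated there. KAP1 peaks with H3K9me3 were 1.47 times as dense proximally as in the rest (interval 1.30 to 1.66), and those without it 1.18 times (1.05 to 1.33). H3K9me3 regions with KAP1 were likewise 1.47 times as dense (1.27 to 1.70), and those without it 1.12 times (1.05 to 1.20). Where an H3K9me3 region held KAP1, it held more than 1 peak in 27.3% of cases both proximally (53 of 194) and in the rest. Of the 557 proximal KAP1 peaks, 113 lay within 10 kb of an H3K9me3 region without overlap (20.3%, against 21.6% in the rest). Another 170 lay farther away (30.5%, against 34.7% in the rest).

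The first 500 kb, where both lists were densest, did not have the highest overlap. There 65 of 141 KAP1 peaks overlapped H3K9me3 (46.1%, interval 38.1 to 54.3). The highest share of the 6 steps was 59.4% (49.7 to 68.5), from 4.5 to 5 Mb, and the intervals of all 6 steps overlap. In the first 100 kb, 23 of 64 KAP1 peaks overlapped H3K9me3 (35.9%, 25.3 to 48.2), and without chromosome 9 it was 21 of 47 (44.7%, 31.4 to 58.8).

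By chromosome, the KAP1 overlap was higher proximally on 13 and lower on 6 of 19. The difference had an interval above 0 on chromosomes 4, 6, 8 and 13. On chromosome 13, 30 of 39 peaks overlapped (76.9% against 44.3% in the rest), and on chromosome 8, 26 of 35 did (74.3% against 42.2%). The interval lay below 0 on chromosomes 14, 17 and 19. On chromosome 17, 1 of 11 peaks overlapped (9.09% against 49.1%), and on chromosome 14, 4 of 16 did (25.0% against 50.2%). For H3K9me3 regions the share holding KAP1 was higher proximally on 12 of 19 chromosomes, with an interval above 0 on chromosomes 12 and 13.

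H3K9me3 regions were wider at the proximal ends than in the rest, though not only there. Their median width was 729 bp (interquartile range 388 to 1441), against 609 bp in the rest (326 to 1148), and it was the higher one proximally on 13 of 19 chromosomes. Their median score, which follows width closely in this list, was 63 proximally and 53 in the rest. The greater width continued past the proximal ends. By 500 kb step between 6 and 12 Mb, the median width ran from 611.5 to 822.5 bp and the median score from 55.5 to 67. With the end set at 8 Mb the width difference from the rest was 120 bp (84.5 to 179.5). Of the proximal H3K9me3 regions, 153 (14.99%, interval 12.9 to 17.3) belonged to the upper 10% by score of the autosomal list, against 9.82% in the rest and 9.96% overall. Regions with KAP1 were the wider ones, as in the rest. Proximal H3K9me3 regions with KAP1 had a median width of 2094 bp and those without it 626 bp, against 1669 and 544 bp in the rest. In the widest 25% of the list, 38.7% of proximal regions held KAP1 (33.7 to 43.9), against 37.7% in the rest. In the narrowest 25%, 5.74% did (3.31 to 9.77), against 5.53%. In each of the 4 width classes of this size the interval of the proximal share included the share of the rest, and 349 of the 1021 proximal regions lay in the widest class.

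KAP1 peaks differed less. Their median width was 673 bp (536 to 877) proximally and 649 bp (529 to 840) in the rest, a difference of 24 bp whose interval includes 0 (-11 to 50). It was 41.5 bp (9 to 67) without chromosome 19 and 12 bp (-19 to 42) without chromosome 9. Their median score was 116.7 (84.6 to 200.6) proximally and 106.5 (84.0 to 167.5) in the rest. The difference of 10.2 (2.90 to 18.9) was 6.28 (0.410 to 14.7) without chromosome 9. With the proximal end set at 8 Mb it was 4.04, with an interval that includes 0 (-1.47 to 8.72). The upper 10% by score held 63 of the proximal peaks (11.3%, 8.94 to 14.2), against 9.96% in the rest and 10.0% overall. The upper 1% held 10 (1.80%, 0.978 to 3.27), against 0.976% in the rest and 1.0% overall. None of these 10 overlapped H3K9me3, against 11 of the 172 in the rest, and a count of 0 of 10 has an upper Wilson limit of 27.8%. Of the 10, 6 lay in 1 group of peaks at the start of chromosome 9, and 4 remain without that chromosome. Of the proximal KAP1 peaks in the upper 1% by width, 5 of 20 overlapped H3K9me3 (25.0%, 11.2 to 46.9), against 91 of 162 in the rest (56.2%, 48.5 to 63.6). The same group on chromosome 9 gave 9 of those 20, and without chromosome 9 the counts were 5 of 11 (45.5%, 21.3 to 72.0), against 88 of 159 in the rest (55.3%, 47.6 to 62.9).

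Of the 557 proximal KAP1 peaks, 248 had no other peak within 10 kb, 284 stood in 99 groups of 2 to 9, and 25 stood in 2 groups of 10 or more. Single peaks overlapped H3K9me3 in 35.1% (interval 29.4 to 41.2) proximally, against 25.5% (24.6 to 26.5) in the rest. Groups of 2 to 9 overlapped in 65.8% (60.2 to 71.1) proximally, against 61.6% (60.6 to 62.6) in the rest. None of the 25 peaks of the large groups overlapped, against 35 of 401 in the rest.

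The larger group of 15 peaks lay at the very start of chromosome 9, from 2999970 to 3038347. Its peaks covered 36.7 kb of 38.4 kb, so that it was nearly continuous. They were wide, with a median of 2789 bp (389 to 5529), and high, with a median score of 1437 (277.7 to 3100). No H3K9me3 region lay inside it and the nearest was 9.14 kb away. The group of 10 lay on chromosome 19 from 5786349 to 5845958, with no H3K9me3 region within 12.5 kb. It had an ordinary width and a low score, with medians of 614 bp and 95.2, and a highest score of 1039. Smaller dense groups mostly had H3K9me3. On chromosome 12, from 3330940 to 3337920, 6 peaks in 6.98 kb all overlapped it, and on chromosome 18, from 3032274 to 3058024, 5 of 7 peaks did.

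The 5 proximal KAP1 peaks ranked first by score all lacked H3K9me3. Most peaks in the upper 1% by score lacked it in the rest too, where 11 of 172 overlapped it (6.40%). Chromosome 19 held the top one, at 5037850 to 5038790. It scored 3199 and lay 28.1 kb from any H3K9me3 region. The next 4 had a score of exactly 3100 and were ordered by width. On chromosome 9 they were at 2999970 to 3004460 and 3023229 to 3026711, both in the group at the start of the sequence. Chromosome 3 had another, at 5860095 to 5861067. The last, at 3150724 to 3151648 on chromosome 6, had an H3K9me3 region 0.855 kb away. The 3 highest-scoring proximal KAP1 peaks with H3K9me3 scored far lower. One with a score of 729.4 was found on chromosome 4 at 4579271 to 4582141. The second, on chromosome 16 at 4747939 to 4750566, scored 706.1. The third was again on chromosome 4, at 5116225 to 5118922, and scored 642.9. H3K9me3 covered all of the first 2 of these peaks and 93.1% of the third.

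The highest-scoring proximal H3K9me3 regions mostly held KAP1. Of the 15 in the upper 1% of the autosomal list by score, 12 did (80.0%, interval 54.8 to 93.0), against 71.3% in the rest (66.4 to 75.7). The 3 without it are among the 5 ranked first. The first of these was on chromosome 8. It was 16948 bp wide, from 4617153 to 4634100, and scored 2260. It held no KAP1 peak, and the nearest was 22.5 kb away. The next, on chromosome 18 at 3113204 to 3119597 (score 873), lay 55.2 kb from the nearest KAP1 peak. On chromosome 12 the region at 5059975 to 5066802 (score 819) held 1 KAP1 peak. On chromosome 16 the region at 4742586 to 4750859 (score 762) held 3, which covered 55.1% of it and included the second of the KAP1 peaks with H3K9me3 named above. On chromosome 11 the region at 3538378 to 3545769 (score 761) held none.

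The numbers in the region names follow position along every autosome, so missing numbers show where numbered calls are absent from the lists. Over the proximal ends 52.7% of the KAP1 numbers were listed (interval 49.7 to 55.8), against 54.2% in the rest, and 83.5% of the H3K9me3 numbers (81.3 to 85.5), against 85.0%. Both differences had intervals that include 0. The first 500 kb differed in opposite directions. There 63.9% of KAP1 numbers were listed, 9.70 points above the rest (2.66 to 16.2), and 73.4% of H3K9me3 numbers, a difference from the rest of -11.6 points (-16.7 to -6.99). Numbers were counted after the first listed region of each chromosome in each part, so absent numbers before that region are left out. How far the listed shares bear on the density ratios of the first 500 kb was not tested. Why the other numbers are absent is unknown, and the lists analysed here may not hold every region of the original lists.

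The last 3 Mb of the same chromosomes served as a second comparison. The proximal KAP1 density was 1.11 times the 8.82 per Mb of the distal ends (interval 0.980 to 1.25), and the proximal H3K9me3 density was 0.899 times their 19.9 per Mb (0.825 to 0.979). A raised density is therefore not particular to the centromeric end. Overlap was higher at the proximal than at the distal ends in both lists, with a lower limit of only 0.241 points for KAP1. This comparison was chosen after its values were seen and was not repeated with chromosomes left out. KAP1 overlapped H3K9me3 in 49.2% of proximal and 42.9% of distal peaks, a difference of 6.25 points (0.241 to 12.2), and 19.001% of proximal and 12.9% of distal H3K9me3 regions held KAP1, a difference of 6.15 points (3.06 to 9.26).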

How the data were processed

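The submitters' processing notes name Bowtie2 2.2.1 and the build mm9. The authors deposited 1 list of regions per antibody, each with a position, a name and a score. The KAP1 score has decimals and is no lower than 70, and the H3K9me3 score is a whole number. The sources used here do not give the meaning of either score, the settings of the callers, or whether the library without antibody was a control. A score was compared only within its list. Depth is unknown, so no detection limit was set.

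Starts were counted from 1, and regions were assigned by midpoint. Densities have exact Poisson intervals, ratios of densities exact conditional intervals, shares Wilson intervals and differences of shares Newcombe intervals, all at 95%. Intervals of median differences take the proximal median by order statistics and the median of the rest as fixed. No p-value was computed, since 1 library per antibody leaves no replicate. Windows of the rest were full and consecutive from 6 Mb. KAP1 groups chain peaks no more than 10 kb apart. The 5 highest-scoring regions of each list and the 3 highest-scoring KAP1 peaks with H3K9me3 are named by rule, ties going to the wider. The dense groups, the first 100 kb, the distal comparison and the chromosomes described singly were chosen after their values were seen, and the members and measures were chosen with earlier results of these data known. No mm9 sequence or annotation was used here, so regions are given by position. The computation was tested on simulated lists without the clustering of the real calls, so that test does not show how well the intervals hold for clustered calls. Python 3.11.15, pandas 2.3.3, scipy 1.17.1 and statsmodels 0.14.6 were used.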

Additional observations from a re-analysis of the deposited data

How the results depend on the processing

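Under the alternatives run, both proximal density ratios stayed above 1. Leaving out the first 500 kb lowered them to 1.17 for KAP1 and 1.06 for H3K9me3 (interval 0.990 to 1.14). The higher-scoring 50% of both lists gave 1.46 and 1.35, and covered length 1.46 and 1.44. In the upper 50% the H3K9me3 ratio of the first step was 2.03. With 1 chromosome left out the ratios ran from 1.23 to 1.36 for KAP1 and from 1.14 to 1.23 for H3K9me3. The share of proximal KAP1 peaks with H3K9me3 was 56.5% in the upper 50%, 53.9% within 1 kb, 44.3% with at least 50% of the peak covered and 47.1% without chromosome 13. The share of H3K9me3 regions with KAP1 was 22.2% within 1 kb and 21.3% in the upper 50%. The interval of the difference from the rest included 0 for KAP1 in the upper 50%, within 1 kb (4.06 points) and without chromosome 4, 6, 8 or 13, and for H3K9me3 regions in the upper 50% (2.93 points). The KAP1 score difference was 4.04 with the end at 8 Mb, where its interval included 0, and the KAP1 width difference was 41.5 bp without chromosome 19, where its interval excluded 0. The other values, 81 of 96, stayed within the interval of the reported value or within 1.5 times the count, with no such change of their own interval. That wide limit for counts took in a fall when the first 500 kb was left out. The chromosomes denser proximally then went from 14 to 12 for KAP1 and from 14 to 10 for H3K9me3. The other values with ends at 5 or 8 Mb, merging and the first-step values of chromosomes left out are among these 81. The alternatives overlap, so their number is no measure of robustness. The first-step, per-chromosome and upper 1% alternatives were chosen after seeing the data. The cause was not tested. No paired analysis was possible because each antibody has 1 library only.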
